A study of Mus musculus with 28 samples.

Results

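The macrophage and myeloid genes described here are 38 genes chosen by name as marks of macrophages, monocytes and related blood-derived cells. A gene was kept if its deposited value reached 1 in at least 5 of the 28 libraries. All 38 passed, among 13495 genes that passed the same filter. Closest to the limit were Fcgr1 and Gpnmb, each at 1 or more in 7 libraries, then Trem2 in 12 and Itgam in 15, and no listed gene fell outside it.

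Total RNA of whole kidneys from male mice was sequenced (bulk RNA-seq) in a model of severe diabetic kidney disease. The diseased groups were db/db mice, which lack a functional leptin receptor and are obese and diabetic, from which 1 kidney had been taken out (uninephrectomized, Unx). They were 26 weeks (n = 12) or 35 weeks (n = 5) old. The control groups were db/m mice with both kidneys left intact, at 26 weeks (n = 5) and 35 weeks (n = 6). Genotype and surgery therefore form 1 contrast and cannot be told apart, and no source used here gives the strain background or the glucose levels. The labels do not say whether every library comes from its own animal. Here each counts as 1 animal, and p-values may measure only technical spread.

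Macrophages are phagocytes that live in the kidney between the tubules and along the capillaries, and monocytes from the blood add to them in injury. They depend on the receptor Csf1r and its ligands Csf1 and Il34, and their genes are driven by the transcription factor PU.1, encoded by Spi1. Many of their surface receptors have no signalling tail of their own and signal through the small membrane adaptors Tyrobp (DAP12) and Fcer1g (the Fc receptor gamma chain), whose immunoreceptor tyrosine-based activation motifs (ITAMs) recruit the kinase Syk. Others sense microbial or damaged-cell products, as the Toll-like receptor Tlr2 does with its co-receptor Cd14, and uptake ends in lysosomes rich in enzymes such as lysozyme and cathepsin S.

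Because PU.1 is among the members and acts on many of the others, the promoters of the members were searched for its binding letters. RefSeq promoters (build GRCm38.p6) were found for 29 of the 38 members, and the 250 bases before the start site were read on both strands. The 8-letter form GAGGAAGT was in 0 of the 29, against 2.79% of 27025 genes with a promoter in the table. Its 6-letter core GAGGAA, which is part of the longer form and was looked for after that form was found in none, was in 13 of the 29 members, against 25.9% of genes. A match of letters is a description and does not show that PU.1 binds there. Of the members called in a disease comparison, those were kept whose core lay outside annotated exons with enough bases left to print. This left out Fcgr3 and Aif1, which hold the core and had a lower adjusted p than those shown. The 4 kept members of lowest adjusted p are shown. They belong to Plac8, Ctss and Cd53, which were higher in db/db Unx at 35 weeks, and Clec7a, which was lower at 26 weeks. Capitals mark the core, which lies on the gene's strand in all 4, and its first base lies 146 bases before the RefSeq start in Plac8, 164 in Ctss, 39 in Cd53 and 96 in Clec7a. Each is printed 5′ to 3′ along the gene.
Plac8, chr5:100572246-100572455, minus strand: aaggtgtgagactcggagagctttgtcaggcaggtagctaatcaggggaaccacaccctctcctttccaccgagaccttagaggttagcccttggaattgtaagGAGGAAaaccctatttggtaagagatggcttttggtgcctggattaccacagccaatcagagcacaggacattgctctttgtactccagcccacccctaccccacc
Ctss, chr3:95526536-95526785, plus strand: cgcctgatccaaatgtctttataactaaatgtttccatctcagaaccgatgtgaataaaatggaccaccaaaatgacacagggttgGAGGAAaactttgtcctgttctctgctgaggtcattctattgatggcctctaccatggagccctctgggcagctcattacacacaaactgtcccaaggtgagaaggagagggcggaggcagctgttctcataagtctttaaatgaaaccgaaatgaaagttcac
Cd53, chr3:106790150-106790399, minus strand: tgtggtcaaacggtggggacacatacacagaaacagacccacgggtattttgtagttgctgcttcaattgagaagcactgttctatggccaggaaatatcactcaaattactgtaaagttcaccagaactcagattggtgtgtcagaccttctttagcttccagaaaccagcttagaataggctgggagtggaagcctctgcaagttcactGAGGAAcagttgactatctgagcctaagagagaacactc
Clec7a, chr6:129472780-129473029, minus strand: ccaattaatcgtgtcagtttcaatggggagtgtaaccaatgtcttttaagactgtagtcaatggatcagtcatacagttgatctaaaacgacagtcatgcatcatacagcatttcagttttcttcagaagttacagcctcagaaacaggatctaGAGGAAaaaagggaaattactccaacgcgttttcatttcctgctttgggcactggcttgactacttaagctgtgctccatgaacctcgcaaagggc
The Plac8 stretch holds 210 bases, since the last 40 are exon in the GENCODE annotation, and the others hold 250.

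Values are the authors' scaled signals, in which 1 estimated read is worth 0.0295 to 0.0447 depending on the library, at an estimated depth of 21.8 to 30.8 M reads (M, mega). Over all libraries the highest estimate was 79 reads for Trem2, 97 for Fcgr1, 101 for Clec7a and 131 for Gpnmb, so counting error is large for these 4, and 10965 for Lyz2. Itgam ran from 1 to 207 estimated reads, so its low libraries share that limit. Differences are given as db/db Unx minus db/m on the log2(value + 1) scale, which understates the change of low genes, with the moderated standard error of limma's test. A gene was called higher or lower at a Benjamini-Hochberg adjusted p below 0.05 over all 13495 genes. Means are given with the SD over libraries. As a check of the kidney label, all 8 proximal tubule markers were measured, with a summed value of 6724 to 10752 in every library.

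At 35 weeks all called members but 1 were higher in the diseased kidney, and every role of the list held at least 1 of them. In the identity role it was only Spi1 and in the adhesion role only Itgam, calls that depended on single libraries and on the processing. limma called 17 of the 38 members higher, where 15.9% of all genes tested were called higher, and 1 lower, where 16.4% were. Of the 17, Gpnmb passed the filter on low values only through the diseased group of that age. The median difference of the members was 0.62, against 0.01 over all genes tested. Tlr2 (1.55 ± 0.25), Lyz2 (1.62 ± 0.35) and Cd14 (1.41 ± 0.27) differed most. In bulk tissue, more or fewer cells of a type cannot be told apart from more or less RNA per cell.

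Among the 8 identity genes and the growth factor receptor, only the transcription factor gene Spi1 was called at 35 weeks. Its values in db/db Unx replicates 01, 02, 03, 05 and 06 were 4.54, 1.31, 14.7, 4.54 and 4.81, and db/m ran from 2.30 through a median of 2.45 to 3.23. Of the 5 diseased libraries 4 lay above every control, 1 of them far above, and replicate 02 lay below every control. The difference was 0.68 ± 0.26 (limma adjusted p 0.0423).

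Adgre1, which encodes the F4/80 antigen used to stain mouse macrophages, was at 3.26, 1.07, 13.5, 6.72 and 9.77 in the same 5 libraries and at 1.91 to 3.98 in db/m. Replicates 03, 05 and 06 lay above all controls and replicate 02 below all of them, and the difference of 0.70 ± 0.32 was not called (limma adjusted p 0.0989). Cd68, a lysosomal membrane protein, and Mpeg1, the pore-forming perforin-2, had differences of 0.54 ± 0.23 and 0.59 ± 0.29, neither of them called. The 4 remaining genes of this role, Csf1r (-0.16 ± 0.14), Aif1 (0.49 ± 0.27), Ms4a7 (0.54 ± 0.31) and the mannose receptor gene Mrc1 (0.41 ± 0.28), were not called either.

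Mrc1 and Clec7a did not follow most other genes in the library where those were highest. Mrc1 was at 2.99, 0.715, 0.362, 6.83 and 2.55 in db/db Unx replicates 01, 02, 03, 05 and 06, and at 0.789 to 2.16 in db/m. Replicate 03 thus held the lowest Mrc1 value and the highest Spi1, Adgre1 and Cd68 values of its group. Clec7a was the other member lowest in replicate 03, at 1.09 against 1.38 to 2.55 in the other libraries of its group.

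Of the 4 adhesion and chemokine receptor genes, Itgam, the alpha chain of the complement receptor integrin Mac-1, was called higher. Its values were 1.22, 0.596, 6.25, 3.71 and 2.46 in db/db Unx and ran from 0.0893 through a median of 0.428 to 3.07 in db/m. The groups overlapped, since 1 control library reached 3.07 and only replicates 03 and 05 exceeded it, and the difference was 0.98 ± 0.36 (limma adjusted p 0.0371). Its partner chain Itgb2 (0.50 ± 0.33), the fractalkine receptor Cx3cr1 (0.31 ± 0.25) and Ccr2 (0.02 ± 0.25), the receptor by which monocytes leave the bone marrow, were not called.

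The ITAM adaptors and Fc receptors gave 3 higher calls and 1 lower call among 6 genes. Fcgr3, the low-affinity activating IgG receptor that needs Fcer1g, was at 8.62, 6.76, 17.9, 24.4 and 18.5 in db/db Unx and from 4.57 through a median of 4.91 to 6.49 in db/m. No diseased library fell into the control range, and the difference was 1.27 ± 0.24 (limma adjusted p 9.36e-05). Fcer1g itself was at 11.3, 6.47, 34.8, 14.6 and 17.5, against 5.89 to 8.94 in db/m, a difference of 0.90 ± 0.22 (limma adjusted p 0.00136). Tyrobp was at 9.37, 4.84, 24.5, 17.4 and 18.3, against 6.49 to 11.6 in db/m, a difference of 0.66 ± 0.25 (limma adjusted p 0.0387). Both adaptors had replicate 03 at the top and replicate 02 inside or below the control range.

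Fcgr2b, the inhibitory IgG receptor, was the member called lower at 35 weeks, with 41.3, 29.0, 44.4, 27.3 and 32.8 in db/db Unx and 39.4 through 46.8 to 54.6 in db/m. Replicates 02, 05 and 06 lay below all controls and the other 2 inside their range, for a difference of -0.42 ± 0.11 (limma adjusted p 0.00368). It is also made by endothelial cells and B cells, and Fcgr2b and Fcgr3 share near-identical stretches, so their reads may have been split between them. Trem2, a lipid-sensing receptor that signals through Tyrobp, differed by 0.38 ± 0.23, and the high-affinity IgG receptor Fcgr1 by 0.41 ± 0.27, neither called.

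Receptors for microbial products and complement gave 4 higher calls among 7. Tlr2 was at 9.57, 7.11, 16.5, 13.4 and 14.98 in db/db Unx and from 2.44 through 3.22 to 4.73 in db/m, with no overlap (limma adjusted p 4.22e-06). Cd14, the co-receptor that hands lipopolysaccharide to Toll-like receptors, was at 14.3, 9.65, 22.5, 30.0 and 30.8, against 4.15 to 9.03 in db/m, also with no overlap (limma adjusted p 9.36e-05). For these genes even replicate 02 lay above every control. C5ar1, the receptor of the complement fragment C5a, was at 3.39, 1.91, 7.88, 5.39 and 4.23, against 0.639 to 2.16 in db/m (1.20 ± 0.26, limma adjusted p 0.000442). Unc93b1, which carries nucleic-acid-sensing Toll-like receptors to endosomes, differed by 0.68 ± 0.16. The C3a receptor gene C3ar1 (0.69 ± 0.32), Ly86 (0.48 ± 0.22), the partner of a Toll-like relative on B cells and macrophages, and the beta-glucan receptor Clec7a (0.09 ± 0.19) were not called.

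All 5 lysosomal and digestive genes were called higher, though Gpnmb passed the filter only through db/db Unx at 35 weeks. Lyz2, the lysozyme of macrophages and granulocytes, was at 106, 60.5, 331, 279 and 269 in db/db Unx and from 40.8 through 57.6 to 86.8 in db/m (limma adjusted p 0.000786). Replicate 02 fell inside the control range and replicates 01, 03, 05 and 06 lay above it. Lyz2 has a near-identical neighbour, Lyz1, whose reads may be shared with it. Ctss, the protease cathepsin S that trims the invariant chain of MHC class II, was at 24.9, 13.5, 43.9, 49.6 and 50.7, against 9.56 to 18.8 in db/m (1.11 ± 0.29, limma adjusted p 0.00392).

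Gpnmb, a lysosomal glycoprotein of lipid-laden macrophages, was at 1.28, 1.07, 1.48, 3.86 and 4.74 in db/db Unx and from 0.133 through 0.381 to 1.05 in db/m. The groups did not overlap, though the lowest diseased and the highest control library lay next to each other, and the difference was 1.15 ± 0.25 (limma adjusted p 0.000351). Gpnmb reached a value of 1 in all 5 of these db/db Unx libraries and in 2 others, so it passed the filter only through the group where it was high, and its calls in comparisons with that group are a description. Its highest values were in replicates 05 and 06 and not in replicate 03. Pld4, an exonuclease of endosomes, was at 8.12, 4.76, 13.2, 14.7 and 12.5, against 2.64 to 6.69 in db/m (1.04 ± 0.21, limma adjusted p 0.000137), and the lysosomal membrane protein gene Laptm5 differed by 0.56 ± 0.17.

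Of the 4 genes for the phagocyte NADPH oxidase and the actin skeleton, Ncf1, the p47phox subunit that assembles with the oxidase on activation, was called higher. It was at 2.86, 2.62, 7.37, 6.72 and 7.33 in db/db Unx and from 0.846 through 1.40 to 2.43 in db/m. The groups did not overlap, and replicates 01 and 02 lay just above the highest control (1.26 ± 0.27, limma adjusted p 0.000308). Cybb, the catalytic membrane subunit, differed by 0.72 ± 0.28 and missed the threshold (limma adjusted p 0.0518). The small GTPase gene Rac2 (0.37 ± 0.31) and the actin-binding coronin gene Coro1a (0.40 ± 0.23) were not called.

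The pan-leukocyte genes split. The tetraspanin gene Cd53 differed by 0.93 ± 0.27 and Plac8, a gene of monocytes and neutrophils, by 0.85 ± 0.20, both called higher. Plac8 was at 11.8, 10.1, 37.1, 19.6 and 14.2 in db/db Unx, against 7.10 to 10.1 in db/m. The lowest diseased value met the highest control, and the other 4 lay above it. Ptprc, which encodes the leukocyte phosphatase CD45, was at 6.25, 2.90, 14.9, 8.01 and 7.40, against 5.99 to 8.68 in db/m. Only replicate 03 exceeded the controls, and the difference of -0.01 ± 0.22 was not called. The glycoprotein gene Cd52 (0.47 ± 0.25) was not called.

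**Figure D1:**
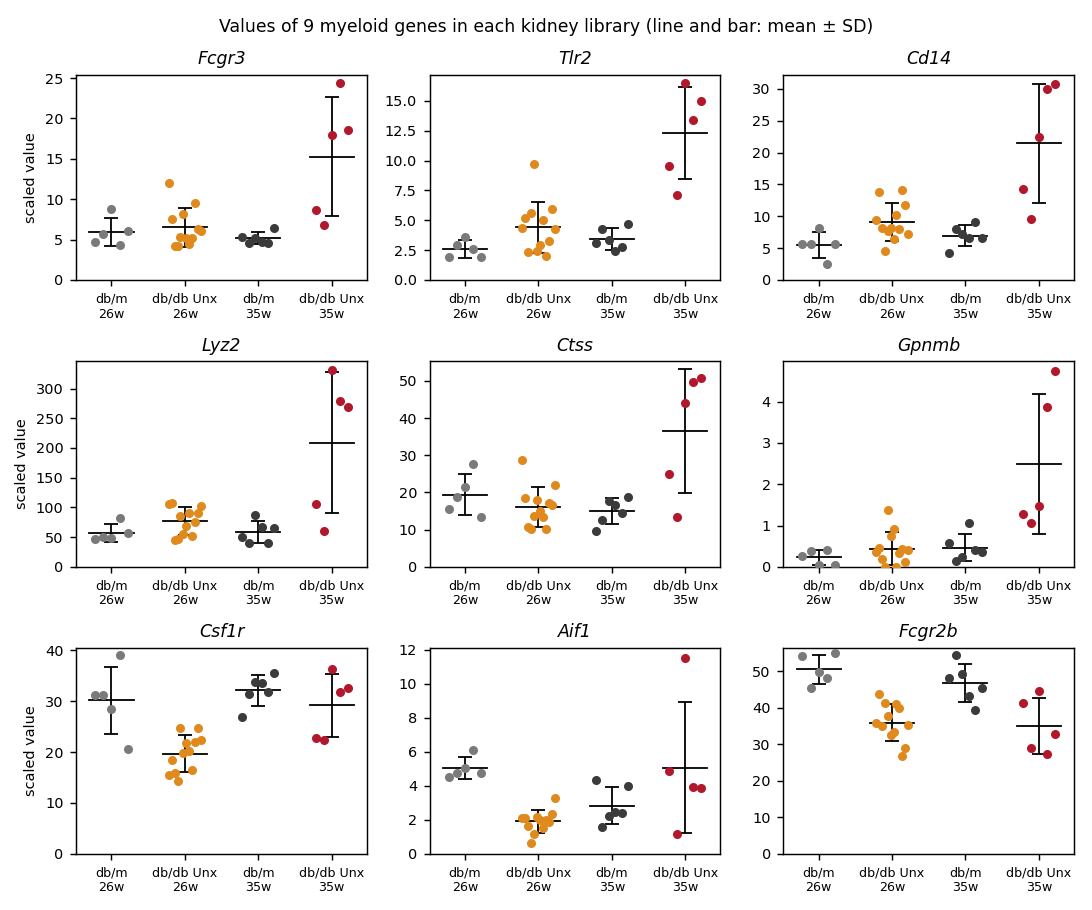
Deposited scaled value of 9 members in every library, by group, 1 point for each library in replicate order from left to right, with a line for the mean and a bar for the SD. The db/db Unx points of 35 weeks, replicates 01, 02, 03, 05 and 06, spread widely in the top and middle rows, with the last 3 highest, and Csf1r, Aif1 and Fcgr2b in the bottom row are low in db/db Unx at 26 weeks.

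Separation was read apart from the model. At 35 weeks the values of 4 members (Fcgr3, Cd14, Tlr2 and Ncf1) did not overlap between the groups with db/db Unx higher, besides Gpnmb, which passed the filter only through that group, against 7.84% of all genes. None of the 38 was separated with db/db Unx lower at that age, against 10.3%. At 26 weeks 0 members were separated with db/db Unx higher, against 5.11% of genes, and 2 with db/db Unx lower, Aif1 and Fcgr2b, against 7.68%. Of the 18 calls at 35 weeks, 3 depended on single libraries and on the processing. Those of Spi1, Itgam and Tyrobp were each lost without replicate 03, 05 or 06 of the db/db Unx group (that of Spi1 also without 01), and each without 4 single db/m libraries of that age, always with 02 and 04 among them. All 3 were also lost with quantile normalization, with only the groups of the comparison in the fit, with the replicate block and with the depth covariate. The other 15 calls were kept under every alternative in which the gene was tested. Leaving out replicate 02 raised the number called higher from 17 to 27.

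At 26 weeks fewer members were called and nearly all of those were lower in the diseased kidney. limma called 8 members lower, where 17.7% of all genes were called lower, and 1 higher, where 17.2% were. The count of lower calls among the 38 members was thus near the share over all genes. The median difference was -0.25, against 0.02 over all genes. The 8 were Csf1r, Aif1, Fcgr2b, Ly86, Clec7a, Coro1a, Ptprc and Cd52, and Cd14 was the one called higher.

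Aif1, the calcium-binding protein Iba1 used to stain macrophages, was at 4.48, 4.76, 5.02, 6.12 and 4.74 in the 5 db/m libraries and from 0.651 through a median of 1.97 to 3.30 in the 12 db/db Unx libraries. Every diseased library lay below every control, and the difference was -1.09 ± 0.23 (limma adjusted p 0.000297). Csf1r was at 31.3, 31.2, 28.5, 39.2 and 20.6 in db/m and from 14.2 through 20.1 to 24.7 in db/db Unx (-0.58 ± 0.13, limma adjusted p 0.00036). Its groups overlapped through 1 control library, replicate 05. Fcgr2b was at 54.2, 45.4, 49.9, 48.2 and 54.9 in db/m and from 26.7 through 35.4 to 43.8 in db/db Unx, with no overlap (-0.49 ± 0.10, limma adjusted p 0.000171).

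Clec7a was at 3.87, 2.69, 2.18, 2.56 and 4.17 in db/m at 26 weeks and from 0.924 through 1.49 to 2.43 in db/db Unx (-0.69 ± 0.17, limma adjusted p 0.00148). Of the 12 diseased libraries, 11 lay below all controls. Cd52 differed by -0.82 ± 0.22, with 11 of 12 diseased libraries below all controls, Ly86 by -0.68 ± 0.19 (9 of 12) and Coro1a by -0.66 ± 0.20 (10 of 12), whose call was lost without db/m replicate 04. Ptprc differed by -0.49 ± 0.19 (limma adjusted p 0.0421), a call lost when any of db/m replicates 01, 02, 03 and 04 or any of 7 single db/db Unx libraries of 26 weeks was left out.

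Cd14 was at 5.71, 5.63, 8.21, 2.52 and 5.57 in db/m and from 4.56 through 8.11 to 14.2 in db/db Unx at 26 weeks. The ranges overlapped widely (0.64 ± 0.23, limma adjusted p 0.0324), and the call was lost without db/m replicate 02, 04 or 05. Tlr2 (0.52 ± 0.22, limma adjusted p 0.0582) and C5ar1 (0.54 ± 0.23, limma adjusted p 0.0645) had differences above 0 that missed the threshold. None of the 5 lysosomal genes was called at 26 weeks, with Lyz2 at 0.41 ± 0.31, Ctss at -0.27 ± 0.26, Laptm5 at -0.27 ± 0.15, Gpnmb at 0.20 ± 0.22 and Pld4 at -0.34 ± 0.18. By limma at an unadjusted p below 0.05, 0 of these 5 passed either.

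Set side by side, 16 members were called at 35 weeks only, all higher, and 7 at 26 weeks only, all lower. The 16 include Gpnmb, which passed the filter only through db/db Unx at 35 weeks. Cd14 was called higher and Fcgr2b lower at both ages. The other 13 members were called at neither age: Adgre1, Cd68, Mpeg1, Ms4a7, Mrc1, Itgb2, Cx3cr1, Ccr2, Trem2, Fcgr1, C3ar1, Cybb and Rac2. A call at 1 age and not at the other does not show that the ages differ, and the difference between the disease comparisons, the interaction, was tested for each gene.

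Aif1 and Pld4 were called in the interaction, which is 2 of 38 members higher, where 0.393% of all genes were called higher, and 0 lower, where 0.156% were. No member had an interaction below 0 at an unadjusted p below 0.05 by limma. All 38 had one above 0, where 6607 of the 13495 genes tested had. Members that are high in the same libraries do not count as separate results. Aif1 had an interaction of 1.58 ± 0.35 (limma adjusted p 0.0334). In db/db Unx at 35 weeks it was at 4.83, 1.15, 11.5, 3.95 and 3.86, and in db/m at that age at 1.60 through 2.42 to 4.33, so that both the diseased mean rose, from 1.89 ± 0.651 to 5.07 ± 3.87, and the db/m mean of 26 weeks, 5.03 ± 0.642, stood above that of 35 weeks, 2.82 ± 1.07. Pld4 had an interaction of 1.39 ± 0.28 (limma adjusted p 0.0209), with db/db Unx at 5.11 ± 1.03 and then 10.7 ± 4.10, and db/m at 6.80 ± 1.65 and then 4.46 ± 1.38.

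Both calls depended on single libraries. Without db/db Unx replicate 05 of 35 weeks 0 members were called in the interaction, and without replicate 02 of that group 17 were. Leaving out replicate 03 of that group, db/m replicate 02, 04 or 05 of 26 weeks, or db/m replicate 02 or 03 of 35 weeks left 1. Without db/db Unx replicate 01 of 26 weeks 5 were called, and without replicate 01 of 35 weeks 6.

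Within the diseased groups limma called 25 of the 38 members higher at 35 than at 26 weeks, where 5.16% of all genes were called higher, and 0 lower, where 6.14% were. Of the 25, Gpnmb passed the filter on low values only through the db/db Unx group of 35 weeks, and its call is a description. The other 13 members were not called. No member was below 0 at an unadjusted p below 0.05. The median was 0.79, against 0.00 over all genes. The largest was Tlr2 at 1.33 ± 0.22 (limma adjusted p 0.000156), from a median of 4.29 (range 2.03 to 9.70) at 26 weeks, followed by Lyz2 at 1.23 ± 0.31, Gpnmb at 1.19 ± 0.22, Cd14 at 1.09 ± 0.23 and Ctss at 1.04 ± 0.26. Csf1r, lower at 26 weeks, was called higher with age (0.54 ± 0.13, limma adjusted p 0.00521), as were Aif1, Ly86, Coro1a, Ptprc and Cd52 of the other genes that had been lower.

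Ages were compared between different animals, and no batch is given in the labels, so that age and batch cannot be told apart. The count also rested on the 3 highest libraries of 35 weeks: 9 members were called without replicate 03, 13 without replicate 05 and 16 without replicate 06. With estimated depth as a covariate 10 were called, and with the same covariate 801 of all genes instead of 1526. Depth was 28.02, 23.4, 30.7, 30.8 and 24.6 M reads in replicates 01, 02, 03, 05 and 06, against 22.2 to 28.6 M in db/db Unx at 26 weeks, and its part in the result was not tested further.

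In db/m nearly all members stayed below the threshold for age. limma called 0 of 38 higher, where 2.73% of all genes were called higher, and 1 lower, where 4.68% were. At an unadjusted p below 0.05 there were 0 higher and 4 lower, and the median was -0.15. The one called was Clec7a, from 3.09 ± 0.870 at 26 weeks to 1.60 ± 0.589 at 35 weeks (-0.66 ± 0.19, limma adjusted p 0.0291). That call was lost without db/m replicate 01 or 05 of 26 weeks or db/m replicate 01 or 04 of 35 weeks. The db/m libraries of 26 weeks are the controls of the first disease comparison, in which Clec7a was called lower.

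**Figure D2:**
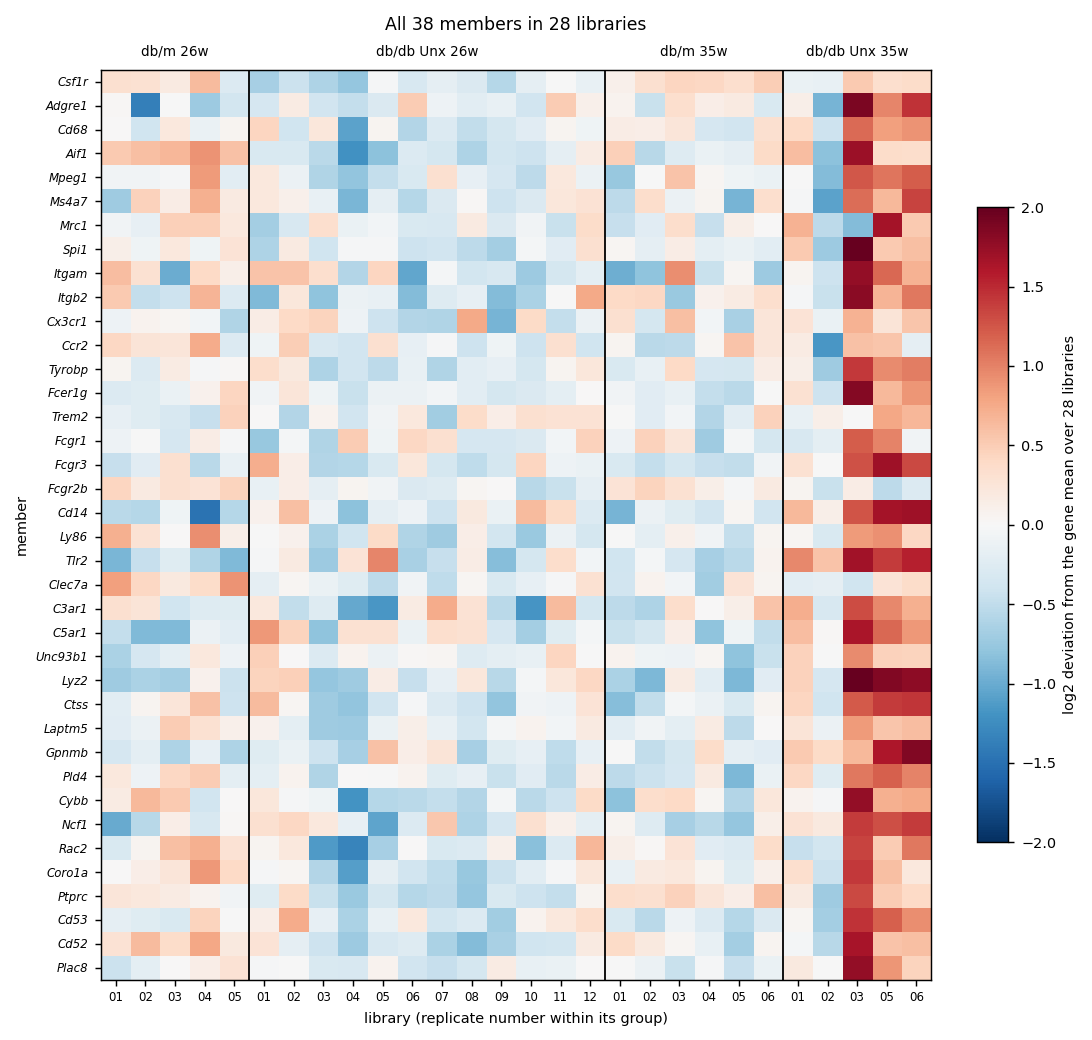
All 38 members in all 28 libraries, as the log2(value + 1) minus the gene's mean over libraries, with libraries grouped by genotype, surgery and age, genes in the order of their roles, and colours that end at 2 in either direction. Replicates 03, 05 and 06 of db/db Unx at 35 weeks are high in most rows, and replicate 02 of that group is low.

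Members tended to be high or low in the same libraries, and the db/db Unx group of 35 weeks was the most uneven of the 4. Each library's members were averaged as log2(value + 1) after subtracting the gene's mean over all libraries. Its replicates 03, 05 and 06 were at 1.18, 0.875 and 0.814, replicate 01 at 0.233 and replicate 02 at -0.336. The other groups ran from -0.0774 to 0.172 in db/m at 26 weeks, from -0.492 to 0.0892 in db/db Unx at 26 weeks and from -0.274 to 0.043 in db/m at 35 weeks. The median SD of a member on the log2 scale was 0.714 in db/db Unx at 35 weeks, against 0.318 to 0.366 in the other 3 groups.

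Replicate 03 held the highest value of its group in 28 of 38 members, and replicate 02 the lowest in 32. Replicates 03, 05 and 06 all lay above both others in 27 members. Replicate 03 exceeded all db/m libraries of its age in 34 members, replicate 05 in 31, replicate 06 in 29, replicate 01 in 20 and replicate 02 in 5. Replicates 05 and 06 led in 10 members together, among them Ctss, Gpnmb, Pld4, Cd14, Fcgr3 and Trem2, in which replicate 03 was not the highest.

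At 26 weeks the diseased libraries lay closer together. Their summed value over members ran from 231 in replicate 04 to 381 in replicate 02, against 312 to 409 in db/m of that age. Replicates 03, 04 and 09 had the lowest means, at -0.355, -0.492 and -0.353, and replicates 02 and 12 the highest, at 0.0878 and 0.0892. No 26-week library reached the level of replicates 03, 05 and 06 at 35 weeks, where the sums were 951, 738 and 727, against 414 in replicate 01, 266 in replicate 02 and 257 to 368 in db/m.

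**Figure D3:**
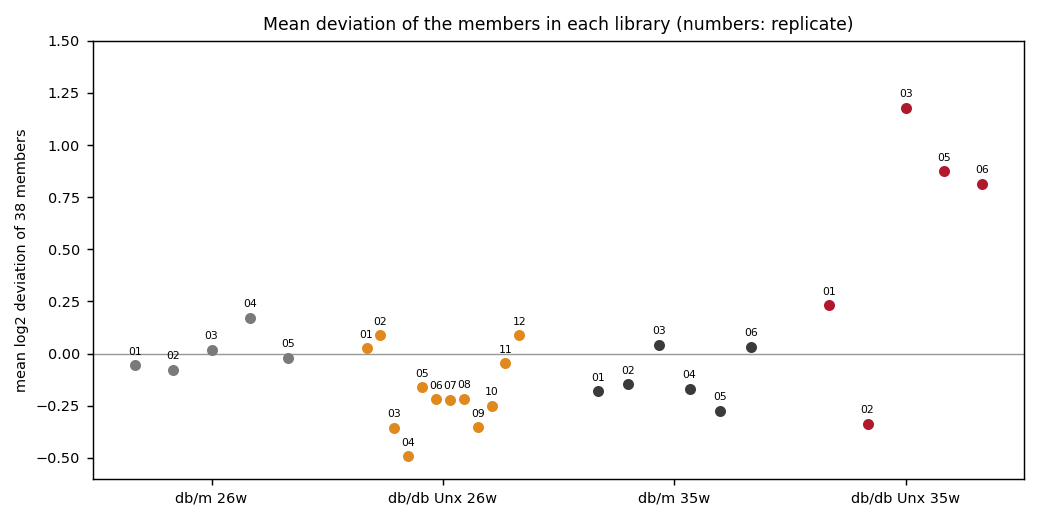
Average of the 38 members as log2(value + 1) after subtracting each gene's mean over all libraries, 1 point for each library, by group, with its replicate number. Replicates 03, 05 and 06 lie between 0.814 and 1.18, and replicate 02 lies at -0.336, within the range of db/db Unx at 26 weeks.

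Pairs of members were compared within libraries, since a log2 difference between 2 genes of 1 library depends less on the scaling of that library. Trem2, Gpnmb and Cd68 were each set against Adgre1, and Ccr2, a monocyte receptor, against Cx3cr1, a receptor of resident macrophages and patrolling monocytes. In 8 exact two-sided permutation tests over libraries none passed after Benjamini-Hochberg adjustment, in a design whose smallest p was 0.000162 at 26 weeks and 0.00216 at 35 weeks. The lowest was Cd68 against Adgre1 at 26 weeks, at 0.783 ± 0.370 in db/m against 0.199 ± 0.531 in db/db Unx, a difference of -0.58 (exact permutation p 0.0427, adjusted 0.341). Gpnmb passed the filter only through db/db Unx at 35 weeks, so its comparison at that age is a description. Gpnmb against Adgre1 differed by 0.45 at 35 weeks (exact permutation p 0.307, adjusted 0.619). Neither value shows that the genes of a pair moved alike.

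Other genes of mononuclear phagocytes, from a list drawn up beside the members, gave 7 higher and 0 lower calls at 35 weeks among 27 tested. At 26 weeks they gave 3 higher and 4 lower. Their medians were 0.34 at 35 weeks and -0.20 at 26 weeks. Over all genes, 15.9% were called higher and 16.4% lower at 35 weeks, and 17.2% and 17.7% at 26 weeks. These shares also stand beside the counts of the lists below. C1qa, a chain of the complement starter C1q that macrophages make, was at 12.4 ± 2.51 in db/m against 26.2 ± 8.87 in db/db Unx at 35 weeks (0.96 ± 0.19, limma adjusted p 0.00017). At 26 weeks it was called lower (-0.46 ± 0.17, limma adjusted p 0.0332), and its interaction was 1.42 ± 0.26 (limma adjusted p 0.01). C1qa thus had calls in opposite directions at the 2 ages. Axl, a receptor for the uptake of dying cells, was called higher at 35 weeks (0.70 ± 0.13), as was the sialic acid receptor gene Siglec1 (0.87 ± 0.22), whose values stayed below 2.59.

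Ligands of the members were already different at 26 weeks, when 3 of 7 were called higher and 2 lower, and at 35 weeks 5 were higher and 1 lower. Il34, the ligand of Csf1r made by tubule cells, was at 41.8 ± 4.00 in db/m against 8.50 ± 2.60 in db/db Unx at 26 weeks (-2.22 ± 0.14, limma adjusted p 3.34e-15) and at 35.7 ± 4.31 and 14.3 ± 2.24 at 35 weeks (-1.27 ± 0.16). Csf1, the other ligand, was at 4.17 ± 0.898 in db/m against 11.6 ± 6.92 in db/db Unx at 35 weeks (1.15, limma adjusted p 0.000141). The 2 ligands of Csf1r were thus called in opposite directions at that age. Ccl2, the ligand of Ccr2, was called higher at 35 weeks (1.70 ± 0.28, limma adjusted p 6.26e-06), from 0.781 ± 0.359 to 5.92 ± 5.30.

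C3, the source of the ligands of C3ar1 and of Itgam with Itgb2, was at 11.4 ± 4.23 and 192 ± 47.9 at 26 weeks and at 17.1 ± 2.30 and 421 ± 152 at 35 weeks, in db/m and db/db Unx in turn. Apoe, a lipid carrier bound by Trem2, differed by 1.19 ± 0.13 and 1.91 ± 0.15. The summed value of the ligands was 950 in db/db Unx replicate 02 of 35 weeks, above the 364 that was the highest in db/m of that age. It was also the lowest of its group, with 1106 in replicate 01, 1161 in 03, 1616 in 05 and 1582 in 06. In replicate 02 both the members and their ligands were thus lowest of the group. Only the ligand sum, largely C3 and Apoe, lay above every db/m library of that age.

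Signalling and cytoskeletal genes of blood cells were called lower in 6 of 23 and higher in 0 at 26 weeks by limma, and 0 were higher at an unadjusted p below 0.05. At 35 weeks 6 were called higher and 2 lower. Syk, the kinase recruited by ITAMs, was at 1.94 ± 0.329 and 1.00 ± 0.534 at 26 weeks and at 0.837 ± 0.532 and 2.42 ± 1.83 at 35 weeks, called lower and then higher, with an interaction of 1.42 ± 0.34 (limma adjusted p 0.0424). Irf5, a transcription factor downstream of Toll-like receptors, was called lower at both ages (-1.59 ± 0.17 and -1.06 ± 0.20). The 4 other oxidase subunit and partner genes gave 1 lower call, Cyba at 26 weeks (-0.25 ± 0.05, limma adjusted p 0.000329), and 0 at 35 weeks. Of those 4 genes 0 passed at an unadjusted p below 0.05 at 35 weeks.

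Markers of other cells that share genes with the members were read beside them. Of 13 T and NK cell markers 6 were tested and 0 were called at either age by limma, with 3 lower and 0 higher at an unadjusted p below 0.05 at 26 weeks and 0 at 35 weeks. Their summed value was 1.71 in replicate 02 and 16.7 in replicate 03 of db/db Unx at 35 weeks, against 5.34 to 12.7 in db/m. Neutrophil markers, 3 of 10 tested and 0 called at either age, summed to 27.99 in replicate 03 against 1.87 to 5.57 in the other 4 libraries of its group and 1.45 to 4.11 in db/m. At 26 weeks 1 db/db Unx library reached 38.3 for these markers. Member sums of that group ran from 231 to 381 and were not matched to that library. Plac8, Lyz2, Itgam and Fcer1g are also genes of neutrophils, and the part of these markers in the values of replicate 03 was not tested. At an unadjusted p below 0.05 there was 1 neutrophil marker higher at 26 weeks and 0 at 35 weeks.

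B and plasma cell markers were called lower in 4 of 4 tested at 26 weeks and in 2 at 35 weeks. Their summed value at 26 weeks was 12.3 to 56.5 in db/m and 1.99 to 11.3 in db/db Unx, with no overlap. Ptprc, Cd52, Coro1a, Ly86 and Fcgr2b, all called lower at that age, are genes of B cells too, and the part of B cells in their values was not tested. Dendritic cell markers gave 2 lower calls of 4 at 26 weeks, Cd209a (-1.24 ± 0.22) and Clec9a (-0.65 ± 0.19). Endothelial markers gave 3 lower calls of 8 at 26 weeks and 2 lower and 1 higher at 35 weeks, with Kdr at -0.74 ± 0.10 and -0.53 ± 0.11. Fcgr2b is a gene of endothelium as well, and that part was not tested.

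Erythroid markers, read as a sign of blood left in the tissue, gave 0 calls in 5 at either age by limma, with 3 lower at an unadjusted p below 0.05 at 26 weeks and 0 at 35 weeks. Their summed value ran from 454 to 2154 in db/m and from 291 to 1075 in db/db Unx at 26 weeks, and the ranges overlapped at both ages. In db/db Unx at 35 weeks it was 782 in replicate 02, where the members were lowest, and 911 in replicate 03, where they were highest. Fibroblast and pericyte markers were called higher in 4 of 6 at each age, and their summed value was lowest of the group in replicate 03 (80.4) and highest in replicate 05 (156), an order unlike that of the members. Proximal tubule markers were called lower in 5 of 8 at 26 weeks and 6 of 8 at 35 weeks.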

How the data were processed

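Total RNA of 28 mouse kidneys was sequenced as Nextera XT libraries, per the labels' protocols. Reads were processed with DRAGEN against GRCm38 (mm10), per the submitters' processing notes; no source used here gives its version, the annotation, the strand setting or the scaling. The deposited signal values (14845 genes, 0 value columns without a sample) behave as estimated reads times 1 factor per library. In each library 81.8% to 83.8% of all values were whole multiples, within 0.1, of the smallest value above 0, so no count model was run. Dividing by that step gave the depths.

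Symbols came from GENCODE M21 (14834 genes matched). Genes that reached a value of 1 in 5 or more libraries were tested on log2(value + 1) with limma 3.58.1 in R 4.3.3 (4 group means, mean-variance trend, robust moderation, two-sided, Benjamini-Hochberg), after a check on simulated data. Libraries of 1 group correlated at 0.966 to 0.99 across genes. The members and lists were chosen with earlier results of these data known. Of each other list up to 4 called genes, taken by lowest adjusted p over both disease comparisons, are named, or the markers themselves where none was called; Csf1 was added after its values were seen. Protein sequences of the adaptors were not used here. Alternatives were other pseudocounts, filters, scalings, moderation, groups in the fit, a depth covariate, a replicate block and each library left out.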

Additional observations from a re-analysis of the deposited data

Results flagged for a closer look

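Among 114 groups of members and libraries small enough for a test of a far sample, 3 held one, and chance gives about 1 in 20. In db/m at 26 weeks Mpeg1 was at 8.34 in replicate 04, far above the 3.46 to 4.09 of the other 4 libraries. In the same group Cx3cr1 was at 3.88 in replicate 05, far below the others at 5.84 to 6.71. In db/m at 35 weeks Itgb2 was at 1.78 in replicate 03, far below the others at 3.94 to 5.19. None of these genes was called in a disease comparison.

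The disease difference at 35 weeks minus that at 26 weeks was 1.58 for Aif1 (limma adjusted p 0.0334) and 1.39 for Pld4 (limma adjusted p 0.0209). In both genes the db/m mean was higher at 26 than at 35 weeks, a difference not called for either, and the db/db Unx mean was higher at 35 weeks, which was called for both.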

How the results depend on the processing

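Over 39 alternatives, 28 of them leaving out 1 library, 7307 member values were recomputed: 0 reversed a call, 157 lost and 106 gained one, and 25 of the 55 member calls were kept under every alternative. At 26 weeks the members called higher (1) became 2 without db/db Unx replicates 02 and 03 of 35 weeks, and 0 with a pseudocount of 5, with quantile normalization and with the replicate block, and ran from 0 to 3 when single libraries were left out. Those called lower (8) became 4 with the block, which ended the calls of Ly86, Coro1a, Ptprc and Cd52, and ran from 6 to 9. At 35 weeks 17 called higher ran from 14 to 27. The calls of Spi1, Itgam and Tyrobp there were lost with quantile normalization, with only the groups of the comparison, with the block and with the depth covariate, those of Spi1 and Itgam also with a pseudocount of 0.1, that of Itgam also without db/db Unx replicates 02 and 03 of 35 weeks, and that of Spi1 also without trend and robust moderation. With age in db/db Unx the 25 members became 10 with the depth covariate and 9 with the block and ran from 9 to 31, and the 1526 genes became 801 and 483 and ran from 633 to 1748. With age in db/m the 1 member became 2 without replicates 02 and 03 of db/db Unx at 35 weeks and 0 with a minimum value of 5, under which Clec7a and Aif1 were not tested, and ran from 0 to 1, and the 999 genes ran from 578 to 1140. In the interaction the 2 members became 10 without those 2 replicates, and 1 with the depth covariate, without trend and robust moderation, with a pseudocount of 0.1, with the block and with a minimum of 5, and ran from 0 to 17. The 74 genes of the interaction became 152, 27, 41 and 29 under the first 3 of these and the block, and ran from 7 to 249. Gpnmb against Adgre1 at 35 weeks reversed from 0.449 to -0.0356 with a pseudocount of 5 and ran from 0.198 to 0.835, the last without db/db Unx replicate 03. The same pair at 26 weeks ran from -0.388 to 0.0596, reversed without db/m replicate 02, and Trem2 against Adgre1 at 35 weeks from -0.682 to 0.0506, reversed without db/db Unx replicate 03. Same-numbered db/m and db/db Unx libraries of the same age had residual correlations of -0.0612 to 0.084 over 10 pairs. Same-numbered libraries of different ages were not compared, so a factor shared between them was not tested. The labels give a replicate number and no pairing, so the block is no paired analysis. With the minimum of 5 those members were left out and no call of theirs was tested. The cause of the other changes was not tested. Low read numbers limit Gpnmb, Clec7a, Fcgr1 and Trem2, and also Itgam, at 2 to 74 estimated reads in db/m at 35 weeks. C5ar1, at 17 to 52, and Ncf1, at 24 to 75, were low in that group too. Ncf1 started at 66 estimated reads in db/db Unx of that age. That 2 groups hold only 5 libraries each limits every comparison.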

Other observations

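Lysosomal and lipid-associated genes that macrophages share with tubule cells were called in both directions at both ages. Of 18 tested, 9 were higher and 5 lower in db/db Unx at 26 weeks, and 13 higher and 3 lower at 35 weeks, by limma. Lgals3, the galectin of activated macrophages and injured tubules, was at 41.2 ± 2.91 and 81.6 ± 9.45 at 26 weeks and at 34.8 ± 2.82 and 110 ± 12.5 at 35 weeks, in db/m and db/db Unx in turn, with an interaction of 0.66 ± 0.11 (limma adjusted p 0.00711). Spp1, the secreted protein osteopontin, differed by 2.24 ± 0.14 and 2.95 ± 0.16. Lpl, which encodes lipoprotein lipase, was called lower at both ages (-2.04 ± 0.10 and -1.91 ± 0.11).

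Of 11 monocyte genes 5 were tested, and 2 were called higher and 1 lower at each age. Those called were Fn1 (1.05 ± 0.11 and 0.98 ± 0.13), Nr4a1 (1.10 ± 0.28 and 1.15 ± 0.31) and Ace (-2.36 ± 0.15 and -2.23 ± 0.17), and all 3 are also expressed by other kidney cells. Of 17 Toll-like receptor and inflammasome genes 10 were tested. At 26 weeks Il18 was called lower (-0.59 ± 0.17), and at 35 weeks Pycard, the inflammasome adaptor ASC, and Tlr13 were called higher (0.62 ± 0.15 and 0.72 ± 0.25). The single adipocyte marker and the single mast cell marker tested were not called at either age. The adipocyte markers Adipoq, Plin1 and Lep had no matched row in the deposited values. The same held for the mast cell markers Cpa3, Mcpt4, Tpsb2, Fcer1a and Ms4a2.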
